A study of Mus musculus with 2 samples.

Results

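The 10 genes described here encode chaperones and quality control proteins of the endoplasmic reticulum (ER). They are *Hspa5*, *Hyou1*, *Pdia4*, *Dnajb9*, *Sdf2l1*, *Creld2*, *Manf*, *Derl3*, *Herpud1* and *Xbp1*, chosen by name among the 31053 genes that both matrices list, with earlier results of these libraries known. Single-cell RNA-seq libraries with 3′ unique molecular identifier (UMI) counts had been prepared from feeder-free E14 mouse embryonic stem cells (mESCs), the WT library from parental cells and the other from cells labelled S1/5 dKO, in which *Smad1* and *Smad5* had been targeted with CRISPR-Cas9. Both cultures were kept in the same medium with 15% fetal bovine serum and 1000 U/ml leukemia inhibitory factor, and nothing in the labels says how many knockout clones the second library stands for. There was 1 library per condition, so no difference between the libraries has a replicate check, and every interval below is a 95% exact interval that covers counting error only.

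The ER folds secreted and membrane proteins, and cells answer a load of unfolded protein there with the unfolded protein response. Its sensors are IRE1, which splices *Xbp1* mRNA, ATF6, which is cut in the Golgi to release a transcription factor, and PERK, which phosphorylates eIF2α and favors translation of ATF4. XBP1 and ATF6 activate genes for chaperones and for ER-associated degradation (ERAD), the removal of misfolded proteins to the proteasome, while the ATF4 branch activates amino acid synthesis genes and *Ddit3* (CHOP).

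After barcodes with fewer than 1000 detected genes or more than 5% mitochondrial UMIs were left out, 2236 WT cells and 2910 cells of the S1/5 dKO-labelled library remained, with no barcode in both. They held 95965242 and 109020533 UMIs, with medians of 38662 and 34548.5 UMIs per cell. The targeted genes went in opposite directions, since *Smad1* was at 13.4 UMIs per 1000000 UMIs of all kept cells (CPM) in the WT library and 9.17 CPM in the other, whereas *Smad5* was at 6.05 and 9.09 CPM. A 3′ tag outside an edited exon does not check a CRISPR deletion, and because *Smad5* mRNA was higher where it had been targeted, the second library is named by its label, as the S1/5 dKO-labelled library, throughout. The *Pou5f1* level, which marks pluripotent cells, was 1316 and 1292 CPM.

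A known regulatory sequence of ER chaperone genes is the ER stress response element (ERSE), which ATF6 and XBP1 bind together with NF-Y. It was searched on both strands, as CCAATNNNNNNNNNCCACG, in the 250 bases before each RefSeq gene start (GRCm38.p6), a window that was available for 8 of the 10 genes, all but *Manf* and *Hyou1*. Of these 8, 3 held it (*Hspa5*, *Derl3* and *Creld2*), compared with 0.13% of the 27025 genes with such a window. The same motif short of its last base, CCAATNNNNNNNNNCCAC, which every full ERSE also contains, was in 5 of the 8 (with *Pdia4* and *Herpud1*) and in 0.374% of genes. *Herpud1* also held ERSE-II, ATTGGNCCACG, which was in 0.037% of genes, and the core of the XBP1 element UPRE, TGACGTGG, was in 0 of the 8 and 0.603% of genes. The 5 promoters with a match are given 5′ to 3′ on the strand of the gene, ending at the last base before its start, because they show the element, its orientation and its distance to the start. Capitals mark the ERSE, the shorter motif or ERSE-II.
*Hspa5* promoter, chr2:34771840-34772089, plus strand: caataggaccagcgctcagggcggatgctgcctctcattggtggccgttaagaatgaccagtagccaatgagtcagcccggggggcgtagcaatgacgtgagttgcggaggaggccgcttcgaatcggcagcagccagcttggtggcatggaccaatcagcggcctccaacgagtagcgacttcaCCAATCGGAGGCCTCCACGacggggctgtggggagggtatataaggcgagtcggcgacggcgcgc
*Derl3* promoter, chr10:75893148-75893397, plus strand: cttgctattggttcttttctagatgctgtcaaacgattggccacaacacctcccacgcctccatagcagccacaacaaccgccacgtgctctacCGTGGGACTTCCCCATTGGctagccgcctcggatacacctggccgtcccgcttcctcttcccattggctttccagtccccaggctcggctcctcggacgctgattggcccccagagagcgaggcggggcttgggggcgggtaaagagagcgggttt
*Creld2* promoter, chr15:88819396-88819645, plus strand: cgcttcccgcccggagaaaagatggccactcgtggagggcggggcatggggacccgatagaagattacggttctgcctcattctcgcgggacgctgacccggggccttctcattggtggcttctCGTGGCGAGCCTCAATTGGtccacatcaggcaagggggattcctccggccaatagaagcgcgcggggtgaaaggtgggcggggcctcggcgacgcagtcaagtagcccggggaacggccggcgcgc
*Pdia4* promoter, chr6:47813513-47813762, minus strand: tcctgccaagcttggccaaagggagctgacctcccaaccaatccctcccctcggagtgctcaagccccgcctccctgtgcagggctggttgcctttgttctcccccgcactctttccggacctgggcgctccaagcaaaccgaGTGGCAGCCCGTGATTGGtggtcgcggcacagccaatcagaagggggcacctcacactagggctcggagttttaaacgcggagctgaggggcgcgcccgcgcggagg
*Herpud1* promoter, chr8:94386179-94386428, plus strand: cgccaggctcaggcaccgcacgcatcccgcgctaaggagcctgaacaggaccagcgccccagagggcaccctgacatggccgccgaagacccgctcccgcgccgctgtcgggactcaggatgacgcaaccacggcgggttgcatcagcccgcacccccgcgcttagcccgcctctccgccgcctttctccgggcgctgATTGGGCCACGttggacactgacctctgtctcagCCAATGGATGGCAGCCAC
In *Hspa5* the element lay 65 to 47 bases before the start, in the orientation of the gene. The GENCODE gene of *Hspa5* begins at base 34771970, ahead of this RefSeq start, so by that annotation the element is inside the gene. In *Derl3* (156 to 138 bases) and *Creld2* (126 to 108 bases) it was on the opposite strand. The *Pdia4* match lay 107 to 90 bases before the start on the opposite strand. In *Herpud1*, ERSE-II lay 52 to 42 bases before the start and the short ERSE in its last 18 bases, where the window ends. A match describes the letters only, and binding of a factor was not measured.

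The levels of the 10 genes spanned from 5.43 to 345 CPM and were close between the libraries for all but *Xbp1*. CPM is not divided by transcript length, because a 3′ library counts each molecule once. Gene positions are those of mm10. *Hspa5* (chr2:34771970-34777547), the ER Hsp70 known as BiP, was at 213 CPM (210.3 to 216) in WT cells and 201 CPM (198 to 204) in the S1/5 dKO-labelled library, a log2 ratio of -0.09 (-0.11 to -0.06). *Pdia4* (chr6:47796141-47813430), a protein disulfide isomerase, was at 55.7 and 49.8 CPM, with a log2 ratio of -0.16 (-0.22 to -0.11), the lowest of the 10. These 2 intervals lay below 0, but both ratios were small. *Hyou1* (chr9:44379490-44392369), a large Hsp70-like nucleotide exchange factor of BiP, was at 14.8 and 14.7 CPM, and *Dnajb9* (chr12:44205559-44210326), a J-domain co-chaperone of BiP, at 8.58 and 8.71 CPM. *Sdf2l1* (chr16:17130138-17132383), a partner of ER J-domain proteins, was at 44.1 and 47.1 CPM, with a log2 ratio of 0.09 (0.04 to 0.15).

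*Manf* and *Creld2* encode ER stress-inducible proteins that can be secreted. *Manf* (chr9:106838312-106891979) had the most UMIs of the 10 genes, at 339 CPM (335 to 343) in WT cells and 345 CPM (341 to 348) in the other library. *Creld2* (chr15:88819646-88826683) was at 69.7 and 70.0 CPM, a log2 ratio of 0.0046 (-0.043 to 0.052). Of the ERAD genes, *Derl3* (chr10:75893413-75895941), a Derlin of the ER membrane, had the fewest UMIs of the 10, at 5.66 and 5.43 CPM, and *Herpud1* (chr8:94386438-94395377), which recruits the ERAD ubiquitin ligase complex, was at 13.4 and 14.2 CPM. The intervals of the log2 ratios of both genes held 0. *Xbp1* (chr11:5520659-5525893) stood apart from the other 9. It was at 16.7 CPM (15.9 to 17.6) in WT cells and 23.2 CPM (22.3 to 24.1) in the S1/5 dKO-labelled library, a log2 ratio of 0.47 (0.38 to 0.57), or 1.39-fold. This ratio was at percentile 96.1 of all genes with at least 50 UMIs, many of which had fewer UMIs than *Xbp1* and so a larger counting error. Counts from the 3′ end do not tell spliced from unspliced *Xbp1* mRNA.

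**Figure D1:**
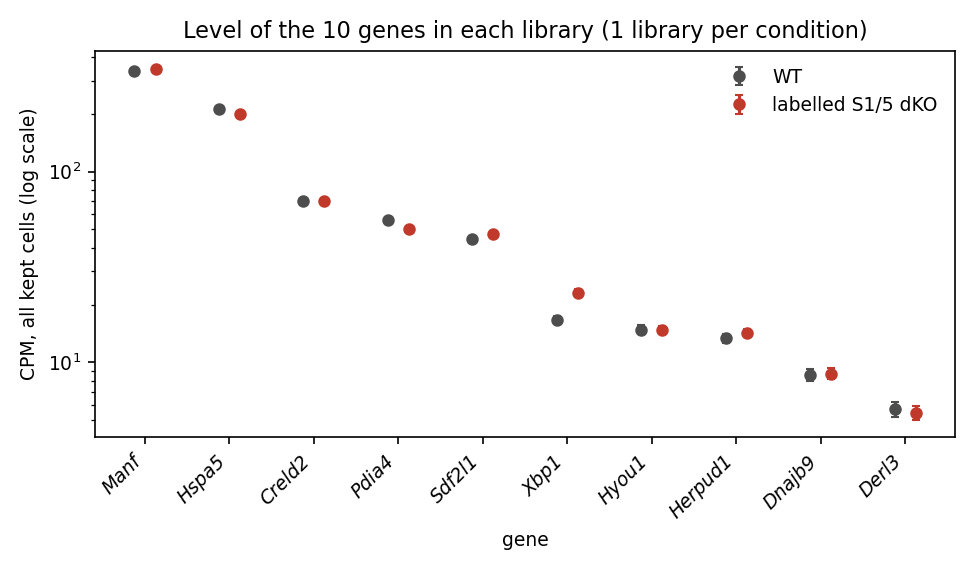
Level of each of the 10 genes, in CPM on a log axis, in WT cells (gray) and in cells of the S1/5 dKO-labelled library (red), with 95% exact Poisson intervals that cover counting error only. The 2 libraries lie close for all genes but *Xbp1* (16.7 and 23.2 CPM), although the intervals of *Hspa5*, *Pdia4* and *Sdf2l1* do not overlap either. *Manf* and *Hspa5* are the most abundant.

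Summed, the 10 genes took 781 CPM (775 to 787) in WT cells and 779 CPM (774 to 784) in the S1/5 dKO-labelled library, a log2 ratio of -0.0036 (-0.018 to 0.011). *Manf* and *Hspa5* made up 70.7% and 70.1% of this sum. None of the 10 genes was 1.5-fold or more apart between the libraries, beside 5.43% of the 13654 genes with at least 50 UMIs (2.81% higher and 2.61% lower in the S1/5 dKO-labelled library). All 10 had more than 500 UMIs over both libraries, and of the 9691 genes with at least 500 UMIs, 161 were that far apart. The median log2 ratio was 0.014 over the 10 genes and -0.0069 over all genes with at least 50 UMIs. The other pathway genes were as close: 0 of 20 other ER chaperones and folding enzymes, 0 of 17 other ERAD genes, 0 of 9 unfolded protein response sensors and membrane-bound factors and 0 of 23 translocation and vesicle genes were 1.5-fold apart. Of 19 ATF4 and integrated stress response genes with at least 50 UMIs, 1 was, *Atf3*, at 1.38 CPM in WT cells and 0.862 CPM in the other library. No cell type known to lack the 10 genes was at hand here as a background. In barcodes of 10 to 100 UMIs, taken as droplets without a cell, the 10 genes were at 42.3% to 111% of their CPM in cells. These CPM compare the make-up of the RNA and not its amount. The 72422 and 72397 such barcodes held 1764311 and 1958216 UMIs in all, where kept cells had medians of 38662 and 34548.5 UMIs each. How many UMIs of a cell came from outside it was not tested.

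To compare cells at 1 depth, every cell of at least 10000 UMIs was thinned at random to 10000 UMIs, which kept 2193 WT cells and 2843 cells of the S1/5 dKO-labelled library and left out 43 and 67 shallower cells. At least 1 thinned UMI of *Manf* was found in 93.3% and 93.0% of cells, of *Hspa5* in 79.8% and 77.9%, and of *Derl3* in 5.84% and 5.21%. For *Hspa5* a Poisson distribution with 1 rate would give 88.7% and 87.1%, so its UMIs were gathered in fewer cells. Before thinning, *Hspa5* was found in 97.0% and 95.1% of cells and *Derl3* in 17.8% and 16.4%. The variance of thinned UMIs over their mean, which is 1 for Poisson counts, was 1.97 and 1.88 for *Hspa5* and 1.97 and 1.95 for *Manf*. It was between 1.01 and 1.27 for the other 8 genes, most of whose cells had 0 or 1 UMI.

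The summed thinned UMIs of the 10 genes gave each cell a value, with a median of 7 and a mean of 7.94 and 7.95 UMIs. Its variance over the mean was 3.20 in WT cells and 2.88 in the S1/5 dKO-labelled library. The 5th, 95th and 99th percentiles were 2, 17 and 26 UMIs in WT cells and 2, 16 and 23 UMIs in the other library, and the highest cells reached 51 and 41 UMIs. The values ran on from the bulk of the cells into a tail, with no gap at the limit used below that would part cells into an off and an on state. Counted by multiples of the median, 157 and 242 cells lay at 2 to 3 times it (a Poisson distribution with 1 rate gives 70.9 and 92.6), 39 and 38 at 3 to 4 times, 9 and 9 at 4 to 5 times, 6 and 9 at 5 to 6 times, and 3 and 0 above. The low end was wider too, since 6 and 16 cells had no UMI of any of the 10 genes, for which a Poisson distribution gives 0.781 and 1.01.

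**Figure D2:**
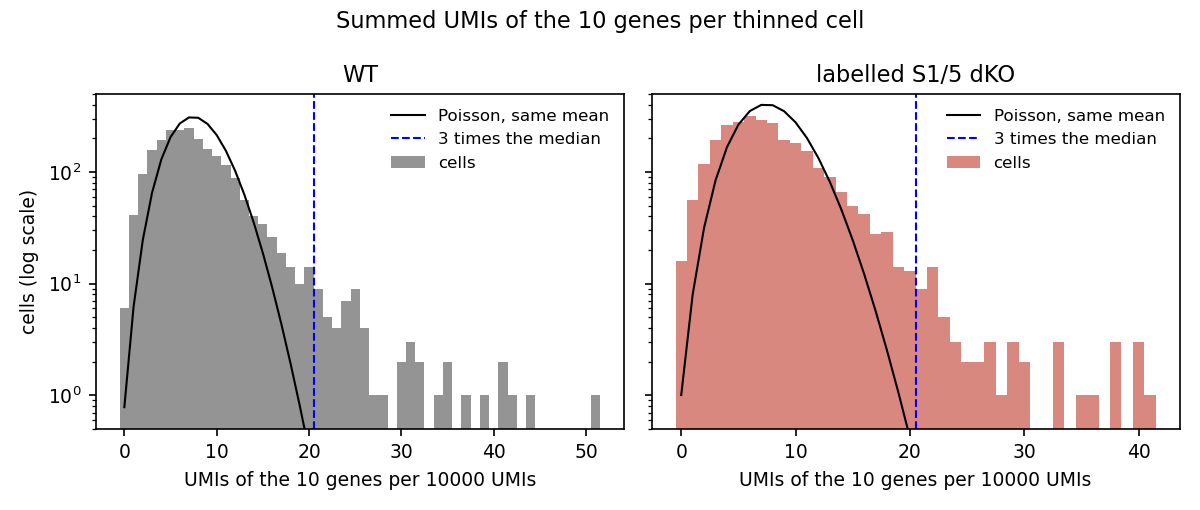
Number of cells (log axis) by the summed UMIs of the 10 genes per cell thinned to 10000 UMIs, for each library, with the Poisson distribution of the same mean (line) and the limit of 3 times the median, 21 UMIs (dashed). Both libraries run past the Poisson line in a tail that thins out toward 51 and 41 UMIs.

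Cells with at least 3 times the median, which is 21 UMIs, are called high cells below. They are a range of this value and not a cell type. There were 57 in WT, 2.60% of cells (1.97 to 3.35%), and 56 in the S1/5 dKO-labelled library, 1.97% (1.49 to 2.55%), where a Poisson distribution with 1 rate gives 0.186 and 0.244 cells. With 1 library per condition these shares describe the libraries and do not compare the conditions. Just inside the limit, at 21 to 23 UMIs, were 18 and 28 cells, and just outside, at 18 to 20 UMIs, were 38 and 56. High cells held 8.95% and 6.58% of the UMIs of the 10 genes. The share depended on depth and on the limit: with the UMIs per 10000 of the same cells and no thinning it was 2.14% and 1.30%, at 5000 UMIs 6.15% and 6.37%, and at 4 times the median 0.821% and 0.633%.

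High cells were slightly shallower than the rest. Their median was 35364 UMIs in WT (39099 in the remaining cells) and 31540.5 in the S1/5 dKO-labelled library (34983), and their median mitochondrial share was 1.83% and 1.82% (1.70% and 1.84% in the remaining cells). When cells of each library were ordered by UMIs before thinning and split in 3 equal parts, the share of high cells went from 3.56% in the shallowest through 2.46% to 1.78% in the deepest in WT, and from 2.85% through 2.01% to 1.05% in the other library. The part of depth in the share was not tested. Doublets were not removed, and when cells of over 2 times the median UMIs were left out (135 and 140 cells) the share was 3.01% and 2.00%.

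The highest cells showed which genes made up the value. The WT cell with 51 of its 10000 thinned UMIs in the 10 genes had 20 of *Hspa5*, 16 of *Manf*, 8 of *Creld2*, 2 each of *Sdf2l1* and *Herpud1*, 1 each of *Derl3*, *Pdia4* and *Xbp1*, and none of *Dnajb9* or *Hyou1*. The highest S1/5 dKO-labelled cell, with 41, had 11 of *Hspa5*, 9 of *Sdf2l1*, 8 of *Manf*, 5 of *Pdia4*, 4 of *Creld2*, and 2 each of *Derl3* and *Herpud1*. In both cells several genes contributed, in different proportions. High cells had a median of 6 and 6.5 of the 10 genes detected (4 to 9), and the remaining cells 3. At least 8 of the 10 genes were detected in 10 and 10 cells, where detection of each gene on its own at the same rates gives 1.92 and 3.26 cells.

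Co-expression was then measured without using a gene to choose its own cells. For each gene, cells whose thinned UMIs of the other 9 genes reached 3 times their median were compared with the remaining cells, in CPM of the unthinned counts. All 10 genes were higher in these cells in both libraries with intervals of the fold above 1, and 9 of 10 were at least 2-fold higher in each library. For comparison, 3.77% and 2.89% of 9890 genes were at least 2-fold higher in the high cells defined by all 10 genes. The folds ran from 1.92 to 9.82 in WT (median 3.04) and from 1.81 to 7.57 in the S1/5 dKO-labelled library (median 2.61), with 44 to 75 and 43 to 85 cells on the high side. Cells are not replicates of a condition, so these folds describe the libraries.

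*Hspa5* was at 591 CPM in the 64 WT cells high for the other 9 genes and at 203 CPM in the rest, and at 514 CPM in 66 cells and 195 CPM in the S1/5 dKO-labelled library, which is 2.91-fold (2.75 to 3.07) and 2.64-fold (2.48 to 2.80). Per cell it ran from 146 through a median of 602 to 1719 CPM in the WT high cells and from 0 through 178 to 1197 CPM in the rest. The ranges overlapped, but 63 of the 64 high cells lay above the median of the rest, as did 66 of 66 in the other library. *Manf* was at 882 and 324 CPM in WT (2.72-fold) and at 800 and 333 CPM in the S1/5 dKO-labelled library (2.40-fold). Its cells overlapped likewise, with 68 of 69 and 80 of 85 high cells above the median of the rest.

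The ERAD genes had the largest folds in both libraries. *Derl3* was at 46.5 CPM (37.8 to 56.5) against 4.73 CPM in WT, 9.82-fold (7.82 to 12.2), and at 37.2 CPM (28.8 to 47.2) against 4.91 CPM in the S1/5 dKO-labelled library, 7.57-fold (5.78 to 9.77). It did not appear in all of these cells: 22 of 56 and 27 of 55 had no *Derl3* UMI at full depth. *Herpud1* was 4.59-fold (3.75 to 5.58) and 4.36-fold (3.53 to 5.33) higher. Of the other chaperones, *Sdf2l1* was 4.05- and 3.13-fold, *Hyou1* 3.88- and 2.87-fold, and *Pdia4* 3.17- and 2.58-fold higher, while *Creld2* was 2.74- and 2.29-fold higher. *Dnajb9*, at 2.08-fold (1.46 to 2.87) and 2.48-fold (1.73 to 3.44), rested on 38 and 37 UMIs in the high cells. *Xbp1* was the least of the 10 in both libraries, at 31.6 against 16.4 CPM in WT (1.92-fold, 1.48 to 2.47) and 41.5 against 23.0 CPM in the other (1.81-fold, 1.41 to 2.28).

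The count of 9 genes depended on the settings in the S1/5 dKO-labelled library. There it was 3 of 10 with thinning to 5000 UMIs, 1 of 10 with a limit of 2 times the median, and 4 of 9 with *Manf* left out (8, 6 and 8 in WT). With no thinning it was 10 of 10 in both libraries.

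Split by the UMIs of the other 9 genes into 6 strata, from under 0.5 times to at least 3 times their median, the genes went up by steps. *Hspa5* was at 143, 160.4, 215, 245, 342 and 591 CPM from the lowest to the highest stratum in WT, and at 132, 154, 198, 256, 304 and 514 CPM in the S1/5 dKO-labelled library. Each step was upward in both. Over the 10 genes, 49 of 50 and 46 of 50 steps were upward, and the median fold over the lowest stratum was 1.11, 1.27, 1.54, 1.97 and 4.06 in WT and 1.09, 1.22, 1.47, 1.74 and 3.39 in the other library. *Derl3* kept to a different course in the S1/5 dKO-labelled library. It was at 5.08, 3.94, 5.10, 4.66 and 8.16 CPM in the first 5 strata and at 37.2 CPM in the last, whereas in WT it was at 2.46, 4.12, 4.46, 6.81, 10.3 and 46.5 CPM. The lowest strata of *Derl3* rested on 34 UMIs in WT and 77 in the S1/5 dKO-labelled library.

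**Figure D3:**
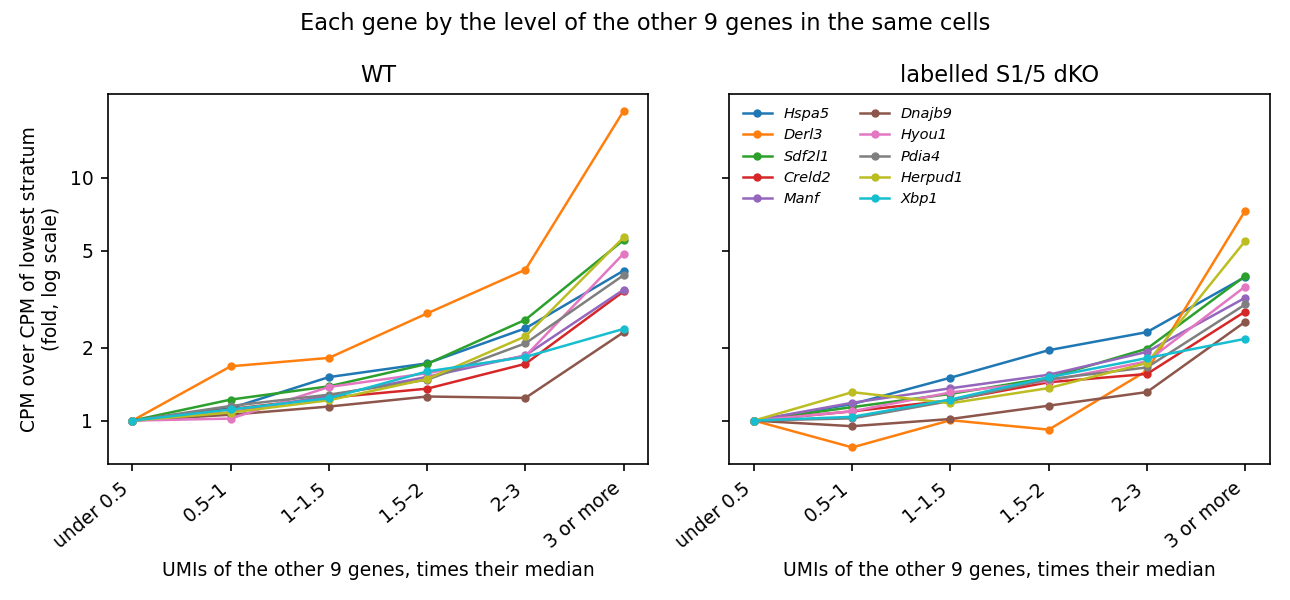
Each gene's CPM in 6 strata of cells, ordered by the thinned UMIs of the other 9 genes as multiples of their median, divided by its CPM in the lowest stratum (log axis), for each library. Most lines go up at every step, and the *Derl3* line is steepest in the last, where it reaches 18.9-fold in WT and 7.32-fold in the S1/5 dKO-labelled library.

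Pair by pair, the correlations over thinned cells were mostly positive and weak. Pearson's r was above 0 for 39 of 45 pairs in WT (n = 2193 cells) and 43 of 45 in the S1/5 dKO-labelled library (n = 2843 cells), with medians of 0.085 and 0.062. The points of each r are cells of 1 library at 1 depth. The highest was that of *Hspa5* with *Manf*, at 0.394 and 0.36. Among the 5 genes with the most UMIs the 10 pairs ran from 0.088 to 0.394 in WT and from 0.088 to 0.36 in the other library. Pairs of the other genes are limited by their counts, and weak values there carry no finding. Each gene's r with the sum of the other 9 was highest for *Manf* (0.473 and 0.415) and *Hspa5* (0.439 and 0.404), between 0.208 and 0.282 for *Creld2*, *Pdia4* and *Sdf2l1*, and lowest for *Dnajb9* (0.02 and 0.055).

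**Figure D4:**
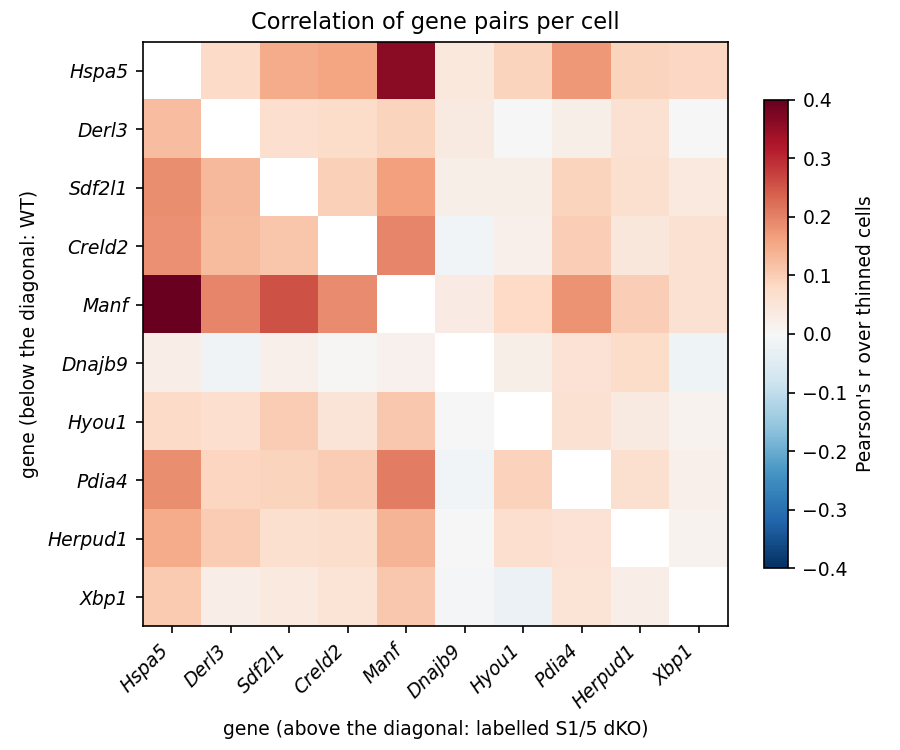
Pearson's r between the 10 genes over cells thinned to 10000 UMIs, below the diagonal for WT and above it for the S1/5 dKO-labelled library (color scale from -0.4 to 0.4). The darkest squares are *Hspa5* with *Manf*, at 0.394 and 0.36, and the *Dnajb9* row is palest.

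The high cells carried much of this, but not all. With them left out, r of *Hspa5* with *Manf* was 0.244 and 0.26, the median over the 45 pairs was 0.021 and 0.021, and the variance of the summed UMIs over their mean was 1.96 and 2.05. The remaining cells, below the limit, therefore still spread more widely than Poisson counts, and *Hspa5* and *Manf* still went together among them.

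The genes most like the 10 over cells were other ER proteins. Among 7922 genes with at least 0.05 UMIs per thinned cell, ranked by the lower r of the 2 libraries with the sum of the 10 genes, the first 10 were *Hsp90b1* (0.46 and 0.377), *Calr* (0.433 and 0.347), *Pdia6* (0.409 and 0.285), *Nupr1* (0.271 and 0.197), *Dnajc3* (0.229 and 0.193), *Fkbp11* (0.247 and 0.184), *Pdia3* (0.242 and 0.159), *Spcs2* (0.163 and 0.144), *Sec61b* (0.23 and 0.141) and *Dnajb11* (0.156 and 0.137). *Hsp90b1* encodes the ER Hsp90 GRP94, *Calr* the lectin chaperone calreticulin, *Pdia3* and *Pdia6* disulfide isomerases, *Sec61b* a subunit of the translocon and *Spcs2* one of the signal peptidase. *Nupr1*, a stress-inducible nuclear protein, was the exception, as it is not an ER protein. The median r over all ranked genes was 0.005 and 0.006.

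In the high cells as a whole, the other ER chaperones and folding enzymes went furthest of the ER lists. Their summed level was 2.00-fold (1.96 to 2.04) that of the remaining cells in WT and 1.76-fold (1.72 to 1.80) in the S1/5 dKO-labelled library, where the median of 9890 genes was 1.03 and 1.01. Of the 20 genes, 19 had at least 10 UMIs in the high cells of both libraries together, a filter that favors genes higher there and that the 9890 genes had also passed. Of these, 9 and 5 were at least 2-fold higher and none was 2-fold lower, beside the 3.77% and 2.89% given above. *Dnajc3*, a co-chaperone of BiP that inhibits PERK, was 3.44- and 2.59-fold higher, *Fkbp11*, a prolyl isomerase, 3.30- and 2.39-fold, and *Hsp90b1* 2.85-fold (851 against 298 CPM) and 2.27-fold (660 against 290.2 CPM). At the other end, *Ero1l*, the oxidase that serves disulfide isomerases, was at 0.911 and 1.22 times the level of the remaining cells.

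The other ERAD genes were at 1.32- and 1.28-fold in sum, and 5 and 3 of 17 were at least 2-fold higher. *Edem1* (2.24- and 2.55-fold) and *Edem3* (2.34- and 2.26-fold), which trim the sugars of misfolded glycoproteins, and *Sel1l* (2.21- and 2.28-fold), the partner of the ligase HRD1, were the 3 in both. *Ube2j1* was at 0.827 and 1.22 times. The translocation and vesicle genes were at 1.36- and 1.32-fold in sum, with none of 23 at 2-fold, led by *Surf4* (1.81- and 1.85-fold), a cargo receptor. *Spcs1* lay at the low end, at 0.909 and 1.02 times. The sensors and membrane-bound factors were at 1.07-fold (0.953 to 1.19) and 1.17-fold (1.05 to 1.31) in sum. Of the 7 that passed the filter, of 9 listed, 0 were at 2-fold, and *Atf6* was at 1.79- and 1.35-fold. *Ern1*, which encodes IRE1, and *Creb3l2* did not pass it. *Ern1* was at 1.19-fold (0.142 to 4.46) and 3.34-fold (1.06 to 8.10) on 2 and 5 UMIs. *Creb3l2* was at 2.17- and 1.57-fold on 4 and 2 UMIs.

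The ATF4 and integrated stress response genes were at 1.79-fold (1.73 to 1.85) and 1.53-fold (1.47 to 1.59) in sum, and 8 and 4 of the 17 that passed the filter, of 21 listed, were at least 2-fold higher. *Nupr1* went furthest, at 86.2 against 7.11 CPM in WT (12.1-fold) and 90.9 against 8.86 CPM in the S1/5 dKO-labelled library (10.3-fold). *Ddit3*, which encodes CHOP, was 4.62- and 4.10-fold higher and *Chac1*, a glutathione-degrading enzyme, 4.60- and 3.18-fold. *Ddit4* and *Ppp1r15a* were at the other end, at 1.10 and 0.779 times and at 1.10 and 1.25 times. A thinned *Nupr1* UMI was found in 40.4% and 33.9% of high cells and in 5.57% and 8.07% of the rest. A *Ddit3* UMI was found in 14.0% and 17.9% against 5.24% and 4.74%. *Ddit3* was at only 24.3 and 21.8 CPM in high cells, so a cell holding its mRNA can lack a thinned UMI. Whether these genes marked some of the high cells and not others was not tested. Thinned UMIs of both *Derl3* and *Nupr1* were found in 22 WT cells and 21 cells of the other library. Beside *Derl3*, the other 9 genes had a median of 23.5 and 8 UMIs in these cells and of 7 UMIs in all others, and 14 and 7 of the cells were high.

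**Figure D5:**
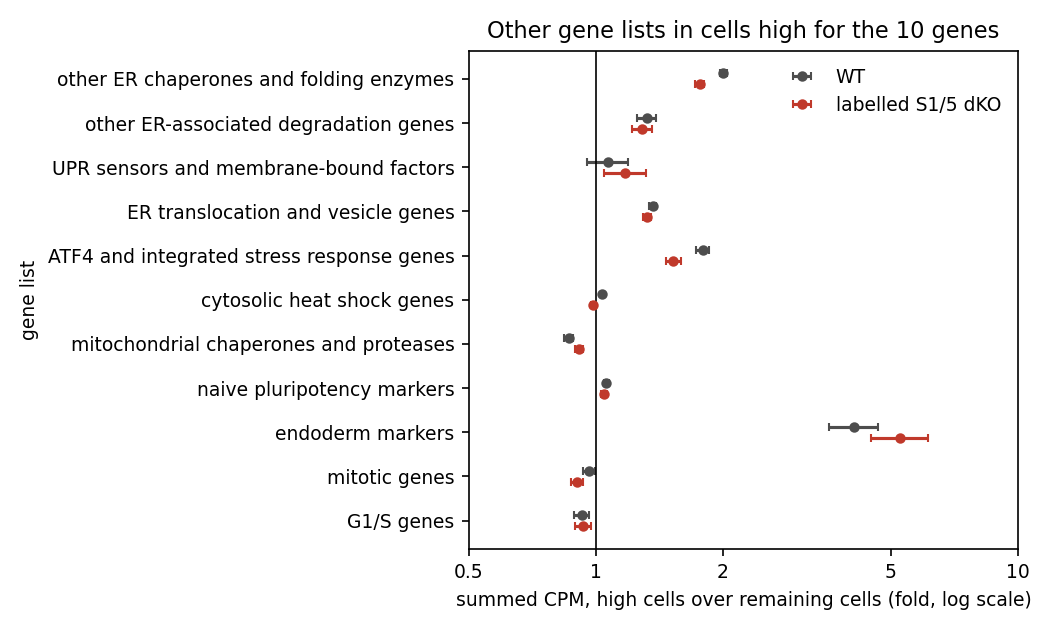
Fold of the summed CPM of each gene list with at least 10 UMIs in the high cells of each library, in high cells over remaining cells (log axis), with 95% exact intervals that cover counting error only, for WT (gray) and the S1/5 dKO-labelled library (red). Of these the endoderm, ER chaperone and ATF4 lists lie furthest to the right, at 4.08 and 5.25, 2.00 and 1.76, and 1.79 and 1.53, and the heat shock, mitochondrial and cell cycle lists lie close to 1.

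Chaperones of other compartments were in sum near or below their level in the remaining cells. Cytosolic heat shock genes were at 1.04- and 0.985-fold in sum, with *Hsp90aa1* at 1.10- and 0.998-fold. Of the 9 that passed the filter, of 12 listed, 0 were at 2-fold. Mitochondrial chaperones and proteases were at 0.861- and 0.91-fold (0 of 7), with *Hspe1* at 0.799 and 0.897 times. Mitotic genes were at 0.961- and 0.902-fold and G1/S genes at 0.924- and 0.932-fold. Naive pluripotency markers were at 1.06- and 1.04-fold, with 0 of 10 at 2-fold. *Klf2* was at 1.67- and 1.23-fold, *Tbx3* at 1.56- and 1.32-fold, and *Pou5f1* was at 0.914 and 0.871 times.

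Endoderm markers were also at a higher summed level in the high cells. The 12 listed took 111 CPM in high and 27.3 CPM in remaining WT cells, and 96.9 and 18.5 CPM in the S1/5 dKO-labelled library, a sum that was 4.08-fold (3.56 to 4.66) and 5.25-fold (4.48 to 6.12) higher. Most of these UMIs, 186 of 243 and 116 of 178 in high cells, were of *Lama1*, *Col4a1* and *Col4a2*, which encode basement membrane proteins. The other 9 markers, which include *Gata4*, *Gata6* and *Sox17*, were concentrated in a few cells. These 9 markers summed to 26.1 CPM in high and 2.37 CPM in remaining WT cells, and to 33.7 and 2.17 CPM in the S1/5 dKO-labelled library. At least 1 of their UMIs was found in 8.77% of high and 8.66% of remaining WT cells. In the S1/5 dKO-labelled library it was found in 17.9% and 5.60%. All 8 endoderm genes that passed the filter, of 12 listed, were at least 2-fold higher in both libraries. Among them were *Pdgfra* (38.6- and 58.2-fold), *Sox17* (13.8- and 62.3-fold) and *Gata6* (24.9- and 10.9-fold), all on few UMIs. *Cubn* and *Afp* had 0 UMIs in high cells, where 3 counts would be 1.37 and 1.63 CPM, and *Sox7* had 1 and 4.

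In all, 7 WT cells and 11 cells of the other library had 3 or more UMIs of the 9 markers at full depth, and 2 and 2 of them were high cells. With these cells left out, a step chosen after the list values were seen, the high cells were 55 (2.52%) and 54 (1.91%), and 9 and 9 of the 10 genes were still at least 2-fold higher with the other 9. The median fold of the 10 was then 3.05 and 2.65, and *Nupr1* was 12.6- and 10.8-fold higher. The sum of *Lama1*, *Col4a1* and *Col4a2* was still 2.46-fold (2.04 to 2.94) and 2.19-fold (1.67 to 2.83) higher in high cells. The sum of the 9 markers was at 0.659-fold (0.135 to 1.95, on 3 UMIs) in WT high cells. That is 1.43 against 2.17 CPM, where all WT cells had given 26.1 against 2.37 CPM. The cells left out had been chosen by these same 9 markers, so this fall follows from the choice and carries no finding. In the S1/5 dKO-labelled library the sum of the 9 markers was still 3.11-fold (1.32 to 6.29, on 8 UMIs) higher. The part of these genes in the result was not tested. Fibroblast markers had no gene with 10 UMIs in the high cells, and 2C-like markers had 0 UMIs there.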

How the data were processed

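Per the labels and methods, the authors made 1 Chromium Single Cell 3′ v3 library per condition, and deposited UMI counts per gene and barcode from Cell Ranger 3.0.2 (mm10), unfiltered. The 10 genes and all lists were chosen with earlier results of these data known. Barcodes under 1000 detected genes or above 5% mitochondrial UMIs were left out. UMIs were summed over cells and divided by their total (CPM), with exact Poisson intervals. Ratios had exact binomial intervals, and shares Clopper-Pearson intervals (scipy 1.17.1, numpy 2.4.6, Python 3.11.15). With 1 library per condition no test was run. Cells were thinned to 10000 UMIs with a fixed seed, and high cells had at least 3 times the median. Genes named were the 10, *Smad1*, *Smad5*, the ends and 3 highest folds of each list (at least 10 UMIs in high cells) and the 10 genes most correlated with the sum, and *Pou5f1* as the check of cell identity. The steps were tested on simulated data. Promoters came from RefSeq (GRCm38.p6) and gene positions from GENCODE. TMM factors came from edgeR 4.0.16 (R 4.3.3). Doublets were not removed.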

Additional observations from a re-analysis of the deposited data

Results flagged for a closer look

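Barcodes with at least 1000 detected genes but over 5% mitochondrial UMIs, which the limit of 5% left out, had a higher summed level of the 10 genes than the kept cells in both libraries. The 26 such WT barcodes were at 2063 CPM (1867 to 2275), where kept WT cells were at 781 CPM. The 29 of the S1/5 dKO-labelled library were at 2023 CPM (1842 to 2216), where kept cells were at 779 CPM. Of the 10 genes, *Hyou1* (5.53- and 5.67-fold) and *Hspa5* (3.71- and 3.41-fold) were furthest above the kept cells in both libraries. Not all 10 were higher: the interval of the fold lay above 1 for 5 genes in WT and 8 in the other library. In WT, *Herpud1* (0.768-fold, 2 UMIs) and *Xbp1* (0.921-fold, 3 UMIs) were not above the kept cells. The top barcode of each library held 8.96% and 19.3% of the UMIs of the 10 genes. *Malat1*, a nuclear RNA, was also higher (4.48- and 4.18-fold) and *Pou5f1* lower (0.784- and 0.653-fold), and their part in the result was not tested. *Nupr1* had 0 UMIs in WT, where 3 counts would be 15.4 CPM, and 1 UMI in the other library. Of these barcodes, 14 and 18 had at most 10% mitochondrial UMIs and enter the results only under that alternative. The 26 and 29 were shallow, with medians of 6794 and 6667 UMIs. In summed CPM of the 10 genes, 21 of 26 and 22 of 29 lay above the median of the kept cells (700 and 717 CPM).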

How the results depend on the processing

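No paired analysis was possible because each condition had 1 library. The log2 ratio of the summed 10 genes stayed between -0.0258 and 0.0279 under all 11 alternatives, and it left its interval with *Hspa5* (0.026), *Manf* (-0.0258) or both left out (0.0279) and without the high cells (0.021). Of 80 ratios of single genes 79 stayed in their interval, and none changed sign among genes whose interval lay off 0. The share of high cells in WT and the S1/5 dKO-labelled library was 6.15% and 6.37% with thinning to 5000 UMIs, 9.76% and 10.5% with a limit of 2 times the median, and 0.821% and 0.633% with 4 times. In the S1/5 dKO-labelled library alone it left its interval at 20000 UMIs (1.45%), with no thinning (1.30%) and with *Manf* left out (2.99%). There the count of genes at least 2-fold higher with the others was 3 at 5000 UMIs, 1 with a limit of 2 times and 4 of 9 without *Manf*, and the cause was not tested. At 2 to 3 times the median a Poisson distribution already gives 70.9 and 92.6 cells. With 1 library per condition no alternative replaces a replicate. The alternatives without *Manf* and without endoderm-marker cells were chosen after the data were seen. Genes 1.5-fold apart numbered 161 of 9691 at 500 UMIs or more and 5486 of 20830 at 1 UMI or more, beside 741 of 13654.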
